A study of Mus musculus with 9 samples.

Results

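Immediate early genes are the genes that neurons transcribe within minutes of synaptic activity, without first making new protein. The set described here has 10 members, Arc, Fos, Fosb, Junb, Egr1, Egr2, Egr4, Nr4a1, Npas4 and Ier2, chosen by name from the 49315 genes of the count table. The choice was made with earlier results of these data known. All 10 were kept by the filter on low counts and are among the 18492 genes tested. In old mouse brain the transcripts of 5 members were lower than in young brain, namely Fos, Egr2, Arc, Ier2 and Egr1, and no member was called higher. Fos and Egr2 fell by about the same amount, 41.1% and 40.6%, Arc fell by 27.0%, Ier2 by 24.6% and Egr1 by 14.7%. Fosb, the closest relative of Fos in the set, was not called, with 24.8 ± 4.28 CPM (read counts scaled to the total of the library, mean ± SD) in 5 young and 27.6 ± 4.40 in 4 old brains.

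In resting neurons these promoters are held ready by constitutive factors, CREB on the cAMP response element and serum response factor on the CArG box. Calcium entry through glutamate receptors and voltage-gated channels activates CaM kinases and the ERK pathway, which phosphorylate these factors and start transcription. Most members encode transcription factors: Fos, Fosb and Junb are subunits of the AP-1 dimer, Egr1, Egr2 and Egr4 are zinc finger proteins, Nr4a1 is an orphan nuclear receptor and Npas4 is a bHLH-PAS factor induced selectively by calcium entry. Arc is a cytoskeletal protein that drives removal of AMPA receptors from synapses, and Ier2 is a small nuclear protein. Their mRNAs are short-lived, so the level in a frozen brain reflects the period shortly before death.

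The samples were whole brains of wild-type C57BL/6J male mice, 5 young (3 months by the labels) and 4 old (33 months), each sequenced as a separate polyA-selected library. The study used 5 mice per age, and old replicate 2 was not analysed here. The mice carried no transgene or treatment, were killed with CO2, and their brains were snap-frozen. The time of day at death is not given in the sources used here. Libraries held 14229259 to 21150439 counts, and this depth did not differ detectably between the ages (exact two-sided permutation test, p = 0.698, the smallest possible being 0.00794). Because the samples are bulk tissue, fewer cells transcribing a gene and less RNA per cell cannot be told apart.

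The promoters of Fos and Egr2, which fell most, and of Fosb and Npas4, which were furthest from being called, are shown here. Activity reaches such genes in part through elements near the start. RefSeq promoter windows (GRCm38.p6, 250 bases before to 50 after the start) were at hand for 7 of the 10 members, Fos, Fosb, Junb, Egr2, Egr4, Nr4a1 and Npas4. Each was searched on both strands for TGACG, the core of the cAMP response element, for the whole element TGACGTCA that contains this core, for the CArG box, for TATAAA, for the EGR sites GCGTGGGCG and GCGGGGGCG, and for the AP-1 site TGACTCA. Capitals below mark the matches, read 5′ to 3′ on the strand of the gene, and CGTCA is the core on the opposite strand.
Fos, chr12:85473640-85473939, plus strand: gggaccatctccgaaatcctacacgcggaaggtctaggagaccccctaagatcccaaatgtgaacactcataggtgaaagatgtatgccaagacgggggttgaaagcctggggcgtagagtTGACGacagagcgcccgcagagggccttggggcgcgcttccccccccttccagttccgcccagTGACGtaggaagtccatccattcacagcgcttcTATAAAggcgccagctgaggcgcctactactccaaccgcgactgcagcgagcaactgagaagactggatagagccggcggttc
Fosb, chr7:19309996-19310295, minus strand: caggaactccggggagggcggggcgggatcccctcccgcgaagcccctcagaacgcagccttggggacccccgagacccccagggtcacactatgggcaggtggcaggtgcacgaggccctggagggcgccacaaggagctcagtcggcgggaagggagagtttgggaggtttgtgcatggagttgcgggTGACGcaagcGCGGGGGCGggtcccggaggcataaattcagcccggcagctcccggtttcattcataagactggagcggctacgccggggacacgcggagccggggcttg
Egr2, chr10:67537619-67537918, plus strand: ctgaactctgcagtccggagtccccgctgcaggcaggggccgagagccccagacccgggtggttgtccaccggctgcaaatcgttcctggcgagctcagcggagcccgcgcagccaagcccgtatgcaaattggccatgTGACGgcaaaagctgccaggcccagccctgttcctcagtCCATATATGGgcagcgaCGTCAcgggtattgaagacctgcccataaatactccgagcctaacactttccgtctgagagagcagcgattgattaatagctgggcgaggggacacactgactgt
Npas4, chr19:4989922-4990221, minus strand: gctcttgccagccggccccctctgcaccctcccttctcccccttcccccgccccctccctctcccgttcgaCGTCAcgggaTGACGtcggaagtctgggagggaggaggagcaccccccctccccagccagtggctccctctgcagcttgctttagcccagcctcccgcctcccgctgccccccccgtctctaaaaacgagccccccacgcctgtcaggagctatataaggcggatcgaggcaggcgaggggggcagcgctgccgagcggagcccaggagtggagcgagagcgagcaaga

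The TGACG core occurred in the windows of 7 of 7 members, counting Egr2 if any of its 5 annotated starts held it, whereas 20.8% of the 32851 mouse starts in the table held it. In the Fos window the core began at positions -129 and -66 and the TATA box at position -33 relative to the start. Fosb held a core at position -60 followed by GCGGGGGCG at position -50. That EGR-type site was also found in Nr4a1 and in 2.91% of all starts. The CArG box was found in 1 of 7 members, Egr2, against 1.63% of all starts, and lay between 2 cores in the window shown. TATAAA occurred in Fos and Junb and in 13.6% of all starts. No member window held the whole TGACGTCA (1.79% of all starts), GCGTGGGCG (0.612%) or TGACTCA (5.2%). A match of letters is a description of these windows and was not tested for binding. Only the windows were searched, so a member without a match may hold the element further from its start.

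The question put to the 10 genes was whether their transcript levels differ between young and old brain. With edgeR's quasi-likelihood test over all genes and a Benjamini-Hochberg adjusted p under 0.05, 5 of 10 members were called lower in old brain, beside 4.89% of all tested genes, and 0 of 10 were called higher, beside 6.09%. Before adjustment, 6 of 10 were lower with p under 0.05, beside 12.3% of all genes, and 0 were higher, beside 13.2%. The fitted log2 fold change, old against young, was negative for 9 of 10 members, beside 9249 of the 18492 genes tested. Its median over the members was -0.31, beside -9.21e-05 over all tested genes. When an absolute log2 fold change over 0.58 was also asked for, Fos and Egr2 remained, 2 of 10 members beside 0.373% of all genes, and 0 were higher, beside 2.13%. In 5 of 10 members every old mouse lay below every young mouse, beside 6.08% of all genes, and these were the 5 members called. In 0 of 10 did every old mouse lie above every young mouse, beside 6.50%. The set was chosen with earlier results of these data known, and its members vary together between mice, as described below. These counts are therefore descriptions and not counts of independent genes.

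**Figure D1:**
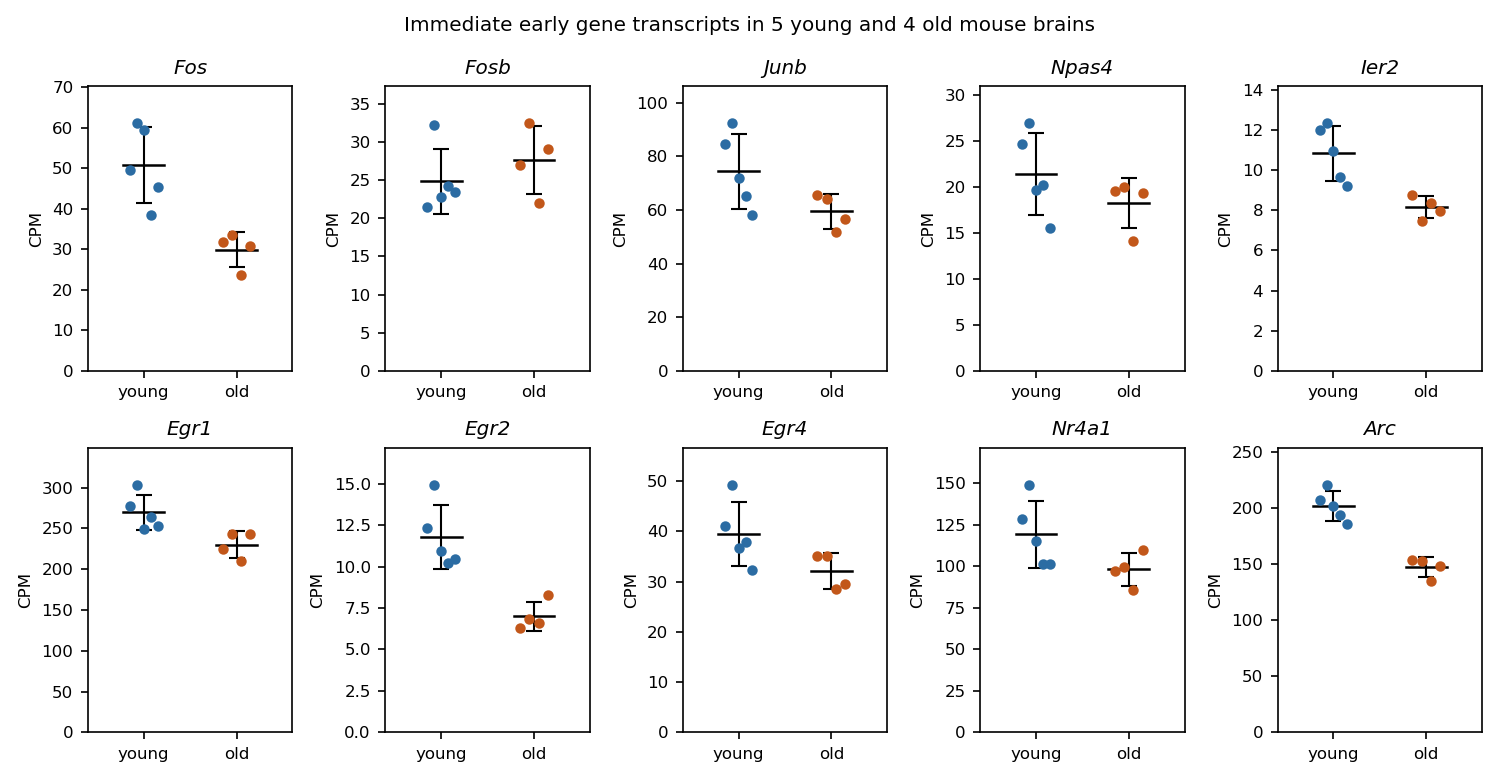
CPM (linear axes from 0) of each of the 10 immediate early genes in 5 young (blue) and 4 old (orange) brains, 1 point per mouse, with the mean and SD as bars. Fos, Egr2, Arc, Ier2 and Egr1 show no overlap between the ages, and Fosb overlaps fully, from 21.4 to 32.3 CPM in young and 21.9 to 32.4 in old mice.

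Among the AP-1 members, Fos, which binds DNA as a dimer with a Jun protein, stood at 49.5, 61.1, 59.3, 38.5 and 45.4 CPM in young mice 1 to 5. In old mice 1, 3, 4 and 5 it stood at 31.7, 33.6, 23.5 and 30.9 CPM. All old mice were thus below the lowest young mouse, and young mouse 4 was the nearest to them. Fos had a mean of 50.8 ± 9.47 CPM in young and 29.9 ± 4.41 CPM in old brain (SD, n = 5 and 4), a log2 fold change of -0.76 (SE 0.17; edgeR, adjusted p = 0.0244). The Fos call was lost without young mouse 1 (edgeR, adjusted p = 0.0525), old mouse 1 (0.0629) or old mouse 5 (0.0618), with log2 fold changes of -0.77, -0.79 and -0.78.

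Fosb, whose splice form ΔFosB accumulates with repeated activity, was measured at 21.4, 32.3, 22.7, 24.2 and 23.5 CPM in the young mice. The old mice had 27.0, 32.4, 21.9 and 29.1 CPM. Young mouse 2 and old mouse 3 had nearly the same, highest level, so the ages overlapped throughout. The Fosb log2 fold change was 0.15 (SE 0.14; edgeR, adjusted p = 0.574), with a 95% confidence interval from -0.17 to 0.46. Leaving out 1 mouse moved the estimate to 0.26 (without young mouse 2), 0.24 (without old mouse 4) or 0.063 (without old mouse 3), and it passed the test in 0 of 9 such fits. The interval over all mice leaves out a fall as large as the point estimate for Fos, and includes both no difference and a moderate rise. The counts do not separate full-length Fosb from ΔFosB.

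Junb, an AP-1 subunit of the Jun group, stood at 84.6, 92.4, 71.8, 65.1 and 58.1 CPM in young and at 65.7, 64.0, 51.8 and 56.5 CPM in old mice. The young values spanned a wide range and the lowest of them lay within the old range. Junb had a log2 fold change of -0.33 (SE 0.15; edgeR, adjusted p = 0.229), which did not pass the test. Its exons share 173 bases with Prdx2 on the opposite strand, and reads from these bases could be counted for either gene if the counting ignored strand.

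The EGR members bind GC-rich sites and couple activity to slower gene programmes. Egr2, the least abundant of them, was measured at 12.3, 14.9, 10.9, 10.2 and 10.4 CPM in young mice. In old mice it was at 6.27, 6.84, 6.62 and 8.28 CPM, and the highest old mouse was below the lowest young mouse. Egr2 averaged 11.8 ± 1.95 CPM in young and 7.0 ± 0.882 CPM in old brain, a log2 fold change of -0.75 (SE 0.12; edgeR, adjusted p = 0.000872). In raw reads this gene was counted 97 to 270 times per library.

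Egr1 (also Zif268), a widely used marker of plasticity, stood at 277, 304, 249.5, 265 and 253 CPM in young mice. Old mice had 225, 243, 209.9 and 244 CPM, which approached the young range without entering it. Its means were 269.7 ± 21.9 and 230.3 ± 16.2 CPM, a log2 fold change of -0.23 (SE 0.060; edgeR, adjusted p = 0.0242). This was the smallest difference among the called members, and the call was lost without young mouse 1 (edgeR, adjusted p = 0.0689), old mouse 1 (0.0898) or old mouse 4 (0.0587). Egr4 had 41.1, 49.3, 36.7, 38.0 and 32.3 CPM in young mice and 35.1, 35.1, 28.6 and 29.5 CPM in old mice. The Egr4 ages overlapped, and the log2 fold change of -0.30 (SE 0.12) did not pass the test (edgeR, adjusted p = 0.142).

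Nr4a1, a nuclear receptor that acts without a known hormone, stood at 129, 149, 115, 102 and 101 CPM in young and at 97.1, 99.6, 86.0 and 109.9 CPM in old mice. Old mouse 5 lay inside the young range. Nr4a1 had a log2 fold change of -0.28 (SE 0.13; edgeR, adjusted p = 0.237). Npas4, which recruits inhibitory synapses onto active neurons, had 24.7, 26.9, 19.7, 20.2 and 15.5 CPM in young and 19.5, 20.03, 14.2 and 19.3 CPM in old mice. In 3 of 4 old mice the level lay within the young range. Npas4 had a log2 fold change of -0.24 (SE 0.17; edgeR, adjusted p = 0.429) and a 95% confidence interval from -0.62 to 0.14.

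Arc gave the lowest p of the set and ranked 48 among the 18492 genes tested. It stood at 207, 221, 202, 193 and 185 CPM in young and at 154, 153, 135 and 148 CPM in old mice, a gap of more than 30 CPM between the nearest mice of the ages. It averaged 202 ± 13.5 CPM over the young and 147 ± 8.92 CPM over the old brains, a log2 fold change of -0.45 (SE 0.052; edgeR, adjusted p = 4.75e-05). Ier2 was at 12.02, 12.3, 10.9, 9.66 and 9.20 CPM in young and at 8.76, 7.48, 8.37 and 7.98 CPM in old mice. The ages did not overlap, although young mouse 5 and old mouse 1 were close. Ier2 averaged 10.8 ± 1.39 and 8.15 ± 0.551 CPM, a log2 fold change of -0.41 (SE 0.10; edgeR, adjusted p = 0.0158).

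**Figure D2:**
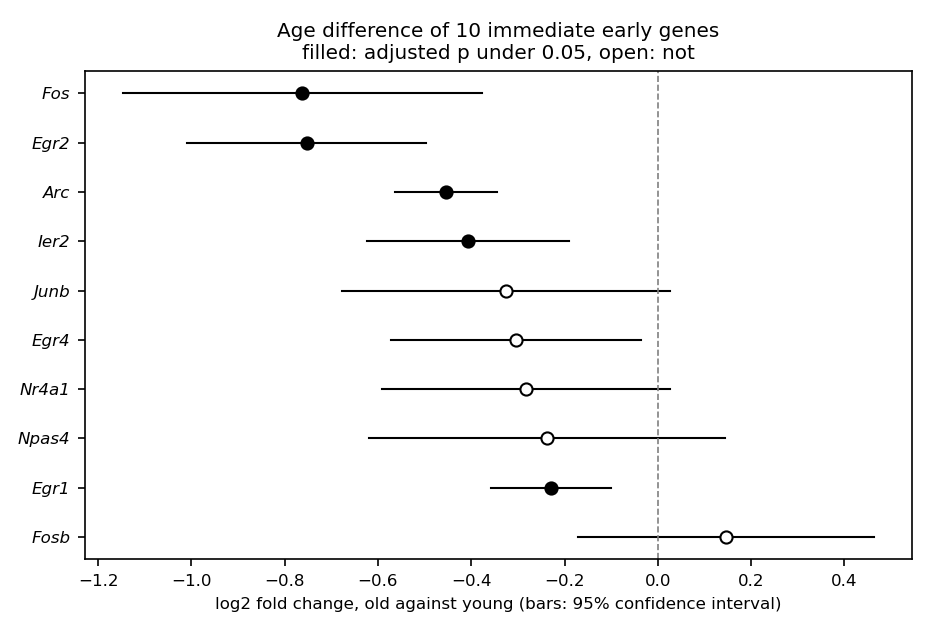
Log2 fold change, old against young, of the 10 immediate early genes with 95% confidence intervals as bars, filled where the adjusted p (edgeR) was under 0.05. The estimates run from -0.76 for Fos to 0.15 for Fosb, and the intervals of Junb, Nr4a1, Npas4 and Fosb include 0.

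Levels were compared between genes per length, in TPM, which divide the reads by transcript length before scaling. In young brain the order of the mean TPM was Arc at 174 ± 37.4, Egr1 at 157 ± 28.1, Nr4a1 at 127 ± 33.9, Junb at 85.5 ± 24.2, Fos at 57.7 ± 19.8, Egr4 at 48.3 ± 11.5, Ier2 at 18.8 ± 4.87, Npas4 at 17.2 ± 4.85, Fosb at 10.4 ± 2.28 and Egr2 at 9.11 ± 2.23 (SD, n = 5). Arc and Egr1, Egr1 and Nr4a1, Fos and Egr4, Ier2 and Npas4, and Fosb and Egr2 differed in mean by less than the larger SD of the pair, although each was in this order in at least 4 of 5 libraries. In old brain Egr1 led at 119 ± 12.7 TPM, before Arc at 112 ± 13.2, Nr4a1 at 92.1 ± 14.01, Junb at 59.9 ± 9.08, Egr4 at 34.6 ± 4.82, Fos at 29.5 ± 5.03, Npas4 at 12.9 ± 2.38, Ier2 at 12.4 ± 1.85, Fosb at 10.2 ± 1.56 and Egr2 at 4.78 ± 0.795 (SD, n = 4). There, Egr1 and Arc, and Npas4 and Ier2, differed by less than the larger SD.

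Some neighbours changed places. Arc exceeded Egr1 in TPM in 5 of 5 young and 1 of 4 old brains, and Fos exceeded Egr4 in 4 of 5 young and 0 of 4 old brains. Fosb and Egr2, close together at the bottom in young brain, were apart in all 4 old brains, with Fosb higher. The TPM of all genes were lower in old brain by a median of 0.14 on the log2 scale after adding 1, so the TPM values of the members at the 2 ages carry this shift as well.

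Because the members share each library, the ratio of their CPM within a mouse does not depend on library size. These ratios are not per length, so only their change between the ages is read. Fosb was singled out after its values were seen, and all 45 pairs of members were tested by an exact two-sided permutation test over the mice. Of the 45 ratios, 15 differed between the ages at an adjusted p under 0.05, of which 7 involved Fosb and 6 involved Egr2, with the pair of Fosb and Egr2 in both counts. The share of differing ratios among pairs of all genes was not computed. A ratio follows from the fold changes of its members given above, so these counts are not independent of the calls. Fosb to Fos was 0.433, 0.528, 0.384, 0.629 and 0.517 in young mice 1 to 5. It was 0.851, 0.966, 0.933 and 0.943 in old mice 1, 3, 4 and 5, so that every old mouse lay above every young mouse.

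The mean ratio of Fosb to Fos rose from 0.498 ± 0.095 to 0.923 ± 0.050, a log2 difference of 0.91 (exact permutation p = 0.00794, the smallest possible; adjusted p = 0.0397 over 45 pairs). It stayed between 0.82 and 0.999 when each mouse was left out in turn. Fosb relative to Egr2 rose from 2.12 ± 0.238 to 3.97 ± 0.669 and Fosb relative to Arc from 0.123 ± 0.016 to 0.187 ± 0.022, with the same permutation p and adjusted p. The ratios of Fosb to Egr1 (log2 difference 0.38) and to Npas4 (0.37) did not pass after adjustment (exact permutation, adjusted p = 0.0536 and 0.0974). Of the 8 differing pairs without Fosb, 5 involved Egr2, which fell relative to Junb, Egr1, Egr4, Nr4a1 and Npas4. Egr1 relative to Egr2, for example, went from 23.1 ± 2.06 to 33.1 ± 3.09, and Egr2 relative to Npas4 from 0.558 ± 0.069 to 0.389 ± 0.070 (exact permutation, adjusted p = 0.0397 each). Among the remaining pairs, Arc relative to Egr1 fell from 0.749 ± 0.035 to 0.641 ± 0.033, and Fos relative to Nr4a1 fell from 0.427 ± 0.056 to 0.305 ± 0.032 (exact permutation, adjusted p = 0.0397 each). Fos also fell relative to Egr1, from 0.188 ± 0.034 to 0.130 ± 0.013 (exact permutation, adjusted p = 0.0476).

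**Figure D3:**
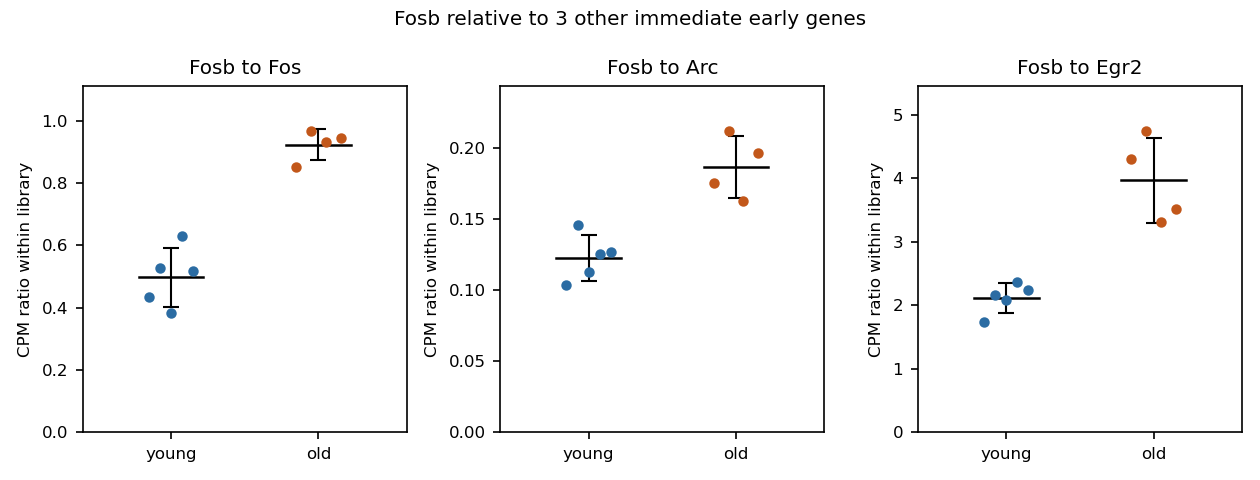
Ratio of Fosb CPM to Fos, Arc and Egr2 CPM within each library (linear axes from 0) for 5 young (blue) and 4 old (orange) mice, with the mean and SD as bars. All old mice lie above all young mice in each panel, for Fos at 0.851 to 0.966 against 0.384 to 0.629.

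The members varied together between mice of the same age. Young mouse 2 had the highest level of the young mice for 10 of 10 members, and young mouse 5 the lowest for 6. Old mouse 4 had the lowest level of the old mice for 8 members and of all 9 mice for 7. Averaged over the members, the log2 CPM of young mouse 2 lay 0.44 above the mean of the 9 mice and that of old mouse 4 lay at -0.38. After removal of the age means, each member correlated with the mean of the others at r between 0.60 (Ier2) and 0.95 (Arc). For scale, Fosl2, outside the set, correlated at 0.60 with the mean of all 10 members and ranked 1309 of 13321 genes. The lower end of the range is thus not particular to the members. How many of all genes were highest in young mouse 2 or lowest in old mouse 4 was not counted. These are descriptions over 9 mice whose values share a library.

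The spread between young mice was larger than counting alone gives for all 10 members, and that between old mice for 9 of them. The counting error at a member's mean count per library was between 1.51% (Egr1) and 7.69% (Ier2), while the coefficient of variation in young mice was 6.69% for Arc, 8.11% for Egr1 and 12.8% to 20.9% for the others. In old mice it ran from 6.05% (Arc) to 15.9% (Fosb), and for Ier2, at 6.76%, it lay below the counting error. Set beside the 500 genes nearest in level, 9 of 10 members had a within-age SD above the 80th percentile, with a median percentile of 97.4. Ier2 was the exception, at the 61.7 percentile. Arc and Egr1 had the smallest within-age SD of log2 CPM in the set, at 0.093 and 0.110. Beside genes of like level they still stood at the 84.6 and 87.4 percentile. Npas4 had the largest SD in the set, at 0.279.

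Markers of brain regions moved with some of these mice. The mean log2 CPM of 6 olfactory bulb markers was 3.54 in young mouse 2 and 1.27 to 1.83 in the other young mice, and it ranged from 1.48 (old mouse 4) to 4.58 (old mouse 5) in old mice. Fosb stood at 27.0 to 32.4 CPM in the 4 mice whose olfactory markers were above 2.8, young mouse 2 and old mice 1, 3 and 5, and at 21.4 to 24.2 CPM in the other 5. With these markers as a covariate, the log2 fold change of Fosb was -0.035, and with 8 cerebellum markers it was -0.12, neither past the test. Fos, Egr1, Egr2 and Arc were called lower under either covariate, with Fos at -0.91 and -0.92, while Ier2 was lost with the cerebellum markers (edgeR, adjusted p = 0.0738). Nr4a1 was gained with the olfactory bulb markers, at -0.43 (edgeR, adjusted p = 0.0232). The ratio of Fosb to Fos was 0.528 in young mouse 2 and 0.933 in old mouse 4, each between other mice of its own age. Fosb to Arc, however, was highest of the young in young mouse 2 (0.146) and lowest of the old in old mouse 4 (0.163). Fosb to Egr2 was 2.16 in young mouse 2, between other young mice, and 3.31 in old mouse 4, the lowest of the old. Whether the ratios follow the olfactory markers was not tested.

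The cerebellum markers, 8 of 8 with a negative fold change and 0 of 8 called, had a mean log2 CPM of 6.59 to 7.04 in young and 6.07 to 6.86 in old mice, a difference of -0.39 (exact permutation, adjusted p = 0.175 over 14 marker lists). The 6 olfactory bulb markers differed by 1.04 (adjusted p = 0.333), also with 0 called. Markers of forebrain excitatory neurons, cells in which these genes are prominently induced, were at 6.49 to 6.72 in young and 6.51 to 6.70 in old mice, a difference of -0.028 (exact permutation, adjusted p = 0.744), and 0 of 11 were called. The 8 pan-neuronal markers differed by -0.14 (exact permutation, adjusted p = 0.0444), with 2 of 8 called, Stmn2 and Tubb3. With the excitatory markers as a covariate the same 5 members and Egr4 were called. That list did not differ detectably between the ages, so this fit could remove little of an age difference. No fit used the pan-neuronal markers as a covariate. Microglia markers were higher by 0.36 (exact permutation, adjusted p = 0.0444), with 1 of 8 called. Endothelial markers were higher by 0.14 and blood markers by 1.24 (exact permutation, adjusted p = 0.037 each), with 4 of 9 and 3 of 6 called higher. The endothelial markers did not move as a group, with 5 positive and 4 negative fold changes, from -0.30 to 0.94. Markers of oligodendrocyte precursors differed by -0.13 (exact permutation, adjusted p = 0.037), with members called in both directions, Gpr17 (-0.83) and Olig1 (-0.17) lower and Sox10 (0.27) higher. The lists for hippocampus, striatum, thalamus, inhibitory neurons, astrocytes and oligodendrocytes differed by -0.054 to 0.15, and none passed (exact permutation, adjusted p from 0.167 to 0.968). Beside these counts, 4.89% of all tested genes were called lower and 6.09% higher. The part of these lists in the members' differences was not tested.

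**Figure D4:**
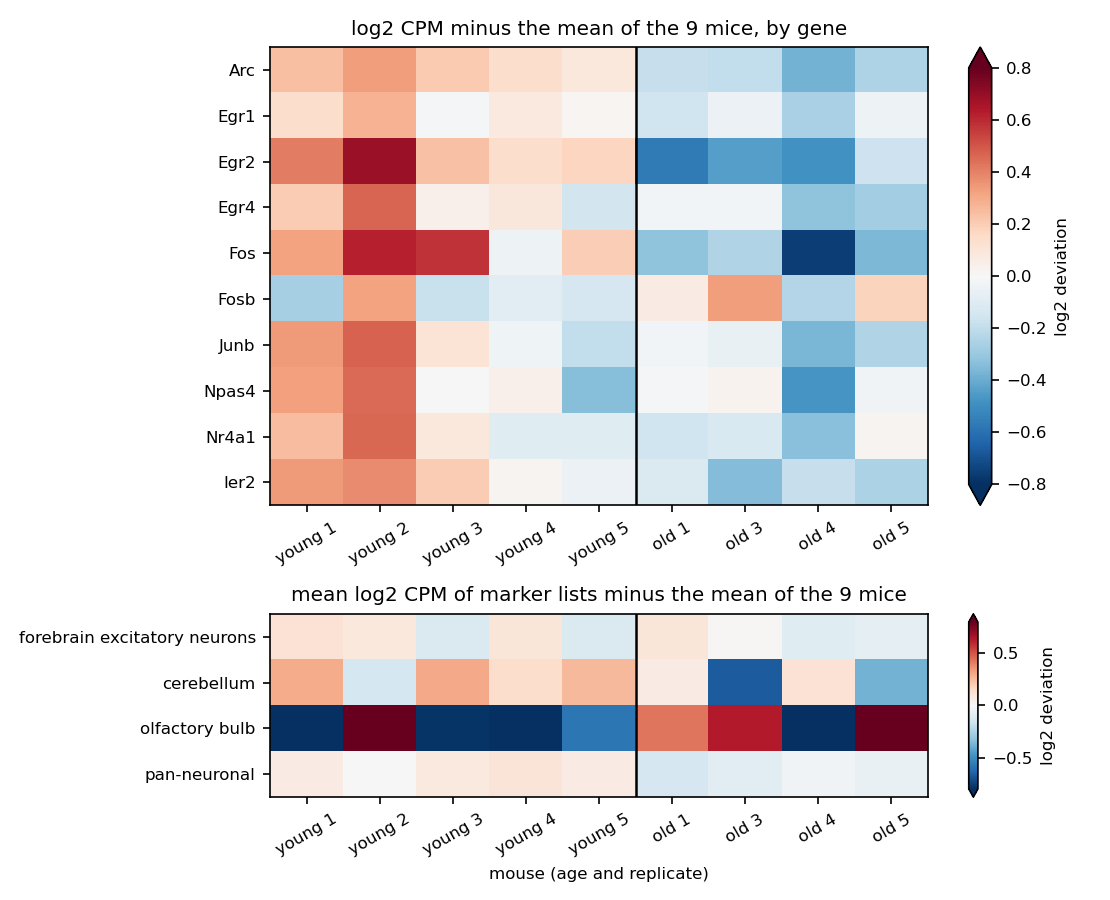
Log2 CPM of the 10 immediate early genes (upper panel) and mean log2 CPM of 4 marker lists (lower panel) in each of 9 mice, as the deviation from the mean of the 9 mice; red is higher, blue is lower and the colours saturate at the ends of the bars. Young mouse 2 is red for all members and high for olfactory bulb markers at 3.54, and old mouse 4 is the bluest column.

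Other genes of the activity response were counted in 7 lists with 122 tested genes. Of these, 13 were called lower in old brain, beside 4.89% of all tested genes, and 20 higher, beside 6.09%. The same shares of all genes stand beside the counts of each list below. Only Mef2b of the 123 listed was not tested, with at most 4 counts in any library. The relatives of the members did not move as a group. Of 7 other AP-1 subunits 0 were called lower and 2 higher. Batf3, a factor known from dendritic cells, was at 0.498 to 0.756 CPM in young and 1.29 to 1.69 CPM in old mice, a log2 fold change of 1.25 (SE 0.23; edgeR, adjusted p = 0.00238). Jdp2, a repressor that dimerises with Jun proteins, was at 35.2 to 41.2 and 41.0 to 44.4 CPM, a log2 fold change of 0.17 (SE 0.051; edgeR, adjusted p = 0.0363). Jun itself had a log2 fold change of -0.29 (edgeR, adjusted p = 0.0838) and is named here after its value was seen. With each mouse left out in turn, Batf3 was called in 9 of 9 fits and Jdp2 in 2.

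Egr3, the remaining activity-induced EGR factor, stood at 44.4 to 59.9 CPM in young and 48.0 to 58.04 CPM in old mice, with a log2 fold change of 0.066 (SE 0.094; edgeR, adjusted p = 0.714). The corepressors of the EGR factors, Nab1 (0.11) and Nab2 (0.0088), were not called either. Of the NR4A receptors, Nr4a2 fell from 56.7 ± 5.4 to 46.7 ± 4.6 CPM, a log2 fold change of -0.28 (SE 0.077; edgeR, adjusted p = 0.0302), a call kept in 4 of 9 fits with a mouse left out. Nr4a3 was measured at 48.7 to 64.8 and 37.3 to 53.8 CPM and did not pass the test, with a log2 fold change of -0.36 (SE 0.12; edgeR, adjusted p = 0.103).

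Of 36 other rapidly induced genes, 5 were called lower and 6 higher, with a median log2 fold change of -0.059. The genes that fell were Btg2, an antiproliferative cofactor, by 0.49 on the log2 scale, Klf10, a TGF-beta-inducible zinc finger factor, by 0.46, Sik1, a kinase that restrains CREB coactivators, by 0.35, Arl5b, a small GTPase, by 0.34 and Dusp1, a phosphatase of MAP kinases, by 0.34. Every old mouse lay below every young mouse for Btg2, Klf10, Sik1 and Arl5b, as it did for 6.08% of all tested genes. Klf10, for example, was at 23.3 to 31.8 CPM in young and 17.7 to 20.9 CPM in old mice (edgeR, adjusted p = 0.00178). With each mouse left out in turn, the calls of Btg2, Klf10, Sik1 and Arl5b held in 9 of 9 fits and that of Dusp1 in 3.

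The genes that rose were Sgk1, a kinase induced by glucocorticoids, by 0.79, Maff, a small Maf factor, by 0.60, Ptgs2, the inducible cyclooxygenase, by 0.58, Ier3 by 0.53, Klf4, a zinc finger factor of endothelium and other tissues, by 0.33, and Csrnp1 by 0.31. Sgk1 stood at 85.1 to 147 CPM in young and 149.5 to 229 CPM in old mice (edgeR, adjusted p = 0.0386). Maff went from 2.68 ± 0.31 to 4.08 ± 0.69 CPM (edgeR, adjusted p = 0.0165). The call of Sgk1 held in 2 of 9 fits with a mouse left out, those of Klf4 and Csrnp1 in 7, that of Maff in 8 and those of Ptgs2 and Ier3 in 9. Csrnp1, Dusp1 and Sgk1, called beyond the 8 genes with the lowest p, are named after their values were seen. The direction thus differed among genes that share the property of rapid induction.

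Later effectors, which neurons make in the hours after activity, had 2 of 18 called lower and 1 higher. Rgs4, a brake on G protein signalling, stood at 223 to 248 CPM in young and 165 to 190.4 CPM in old mice, a log2 fold change of -0.46 (SE 0.048; edgeR, adjusted p = 1.95e-05). Nrn1, the neurite growth factor neuritin, stood at 129 to 143 and 108 to 115 CPM, a log2 fold change of -0.28 (SE 0.038; edgeR, adjusted p = 0.00019). Inhba, a subunit of activin, went the other way, from 4.39 to 5.37 CPM in young to 5.05 to 9.39 CPM in old mice, a log2 fold change of 0.58 (SE 0.15; edgeR, adjusted p = 0.0226). With each mouse left out, Rgs4 and Nrn1 were called in 9 of 9 fits and Inhba in 5.

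Of 46 tested genes for upstream signalling and transcription factors, 4 were called lower and 9 higher, all by less than 0.33 on the log2 scale. Of the 8 with the lowest p, 3 were lower and 5 higher. Camkk2, a kinase that activates CaM kinase IV, fell by 0.25 and Camk4, CaM kinase IV itself, by 0.29, while Calm3, a calmodulin gene, fell by 0.13. The higher ones were Mapk3, which encodes ERK1, by 0.26, the serum response factor coactivators Mrtfa, by 0.32, and Mrtfb, by 0.18, the CREB-binding acetyltransferase Crebbp, by 0.19, and Camkk1, a second activator of CaM kinase IV, by 0.18. Camk4 was at 299 to 356 CPM in young and 238 to 296 CPM in old mice (edgeR, adjusted p = 0.0147). Mapk3 averaged 108 ± 3.0 and 129 ± 2.0 CPM (edgeR, adjusted p = 0.000183).

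Among 13 genes for proteins that bind Arc or regulate its turnover, 1 was called lower and 2 higher. Dlg4, the postsynaptic scaffold PSD-95, fell by 0.17 (edgeR, adjusted p = 0.0139), Dnm2, a dynamin of endocytosis, rose by 0.24 (0.00215), and Rnf216, a ubiquitin ligase for Arc, rose by 0.17 (0.0175). Each of these differences was smaller in size than that of Arc itself. Jdp2, Dusp1, Csrnp1, Nrn1, Camk4, Mrtfa, Dnm2 and Rnf216 share exonic bases with a gene on the opposite strand, so the limit given for Junb holds for them too.

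**Figure D5:**
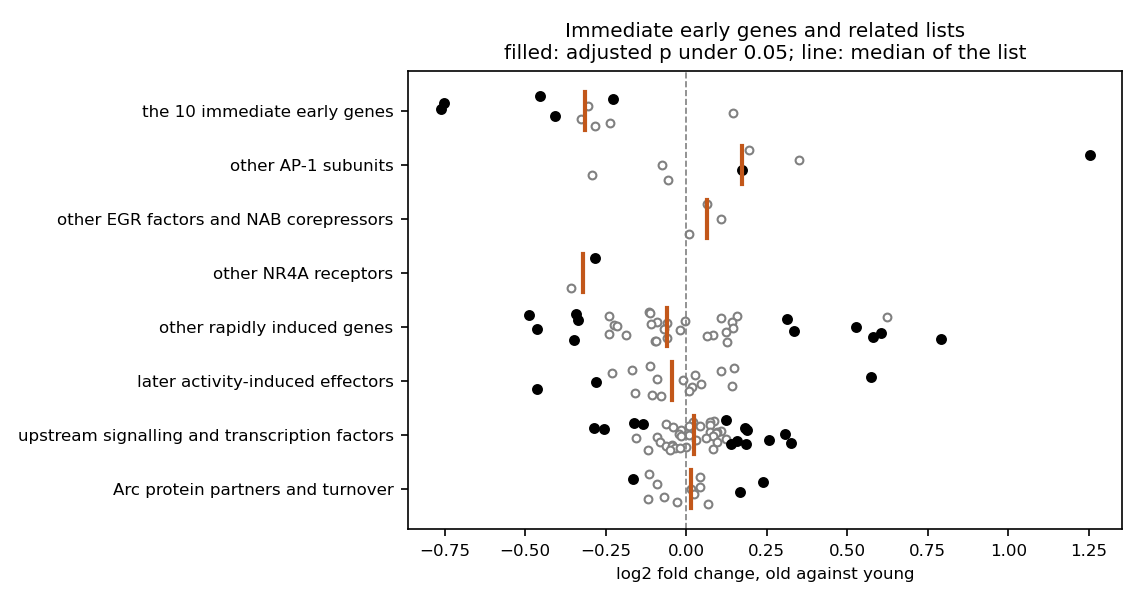
Log2 fold change, old against young, of the 10 immediate early genes and of 7 related lists, 1 point per gene, filled where the adjusted p (edgeR) was under 0.05, with the list median as a vertical line. The median of the immediate early genes is -0.31, and that of the upstream genes is 0.026.

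The genes whose levels followed the members most closely across the 9 mice, after removal of the age means, were sought. The search covered 13321 protein-coding genes with a mean log2 CPM of at least 1. The 8 with the highest correlation were March6 (r = 0.99), Erf, Fam13c, Asb2, Vps37b, Cdc42se2, Rras2 and Nup210 (0.94). This correlation is with the mean of the scaled deviations of all 10 members and is a description over 9 mice with no test. None of the 8 was called between the ages, with log2 fold changes from -0.17 (Vps37b, edgeR, adjusted p = 0.184) to 0.25 (Asb2, 0.414). March6, a ubiquitin ligase of the endoplasmic reticulum, differed by 0.017 (SE 0.037; edgeR, adjusted p = 0.818). Within each age it varied with the members in these 9 mice, without their difference between the ages. Its r is the highest of 13321 and was picked for being so.

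The members lie on 8 chromosomes, with Ier2 and Junb 311632 bases apart on chromosome 8 and Arc and Nr4a1 far apart on chromosome 15 (GRCm38). Arc occupies chr15:74669083-74672570 on the minus strand, Fos chr12:85473890-85477273 on the plus strand, Fosb chr7:19302696-19310051 on the minus strand and Egr2 chr10:67535475-67542188 on the plus strand. Both of the neighbours on chromosome 8 had negative fold changes, and only Ier2 passed the test.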

How the data were processed

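RNA-seq of whole brain was analysed for 5 young and 4 old male mice. Per the study's methods, the authors trimmed reads with Trimmomatic, aligned them to GRCm38 (mm10 in the submitters' processing notes) with STAR and counted uniquely mapped exonic reads with featureCounts. Multi-mapping reads were thus not counted. Strand-specific counting was stated only for strand-specific libraries. The deposited counts are unscaled integers, the deposited normalized counts are a signal that the authors divided by a size factor per library, and the deposited TPM come from the authors too, and their gene lengths are not given in the sources used here. Each table held 1 further column that matched no listed sample and was not used.

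Genes were kept with filterByExpr (edgeR 4.0.16, R 4.3.3; minimum count 10, minimum total 15), normalized with TMM and tested with edgeR's robust quasi-likelihood fit and Benjamini-Hochberg adjustment over 18492 genes. Calls used an adjusted p under 0.05. The study's own test, DESeq2's Wald test (1.42.0), and limma (3.58.1) on TPM and normalized counts were alternatives. CPM are per TMM-scaled library, and log2 CPM used a prior count of 2. Replicates of an age differed by more than sampling noise (chi-square per degree of freedom at least 3.71). Whether the mice shared litters or cages is not given. The tests took each mouse as independent, and the p-values set the age difference against the variation among these mice. The fit was also run on simulated counts, drawn independently for each gene and library, and the outcome is not reported here.

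The members and lists were chosen with earlier results of these data known. Named genes are the 10 members, the called genes of each list (the 8 lowest p where more were called, and lists of at most 4 genes in full), called markers, and the 8 genes most like the members. Symbols and positions came from GENCODE M21 and promoters from RefSeq GRCm38.p6. Alternatives were other size factors, filters, units and thresholds, a replicate block, marker covariates and each mouse left out. The cerebellum and olfactory bulb covariates, the Fosb ratios, the fit without robust estimation and the genes of the authors' table were added after seeing the data.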

Additional observations from a re-analysis of the deposited data

Results flagged for a closer look

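In 68 checks of groups of 4 or 5 mice, 3 values stood apart by Dixon's test, and chance flags about 1 in 20 groups, or 3.4 of 68. Fosb in young mouse 2 (32.3 CPM, the remaining young mice 21.4 to 24.2) had a gap of 0.739 of the range. Npas4 in old mouse 4 (14.2 CPM, the remaining old mice 19.3 to 20.03) had a gap of 0.878 of the range. Olfactory bulb markers in young mouse 2 (mean log2 CPM 3.54, the remaining young mice 1.27 to 1.83) had a gap of 0.753 of the range.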

How the results depend on the processing

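Arc and Egr2 were called lower under all 23 alternatives other than the 2 stricter thresholds, Ier2 under 21, Fos under 20, Egr1 under 17, Egr4 under 3, Junb and Nr4a1 under 1 each, and Fosb and Npas4 under 0. The fold changes of the 9 members other than Fosb were negative under the same 23. Fosb reversed to -0.010 on log2(TPM + 1) and -0.010 on log2(TPM + 0.1), to -0.12 with the cerebellum markers and -0.035 with the olfactory bulb markers as a covariate; the cause was not tested. The members called lower numbered 3 on log2(TPM + 1), 2 with the fold change threshold (Fos and Egr2, so that Arc was lost), 2 at an adjusted p under 0.01 (Arc and Egr2), and 3 to 5 with each mouse left out (3 without young replicate 1 or old replicate 1). They numbered 4 on log2(TPM + 0.1) and with the cerebellum markers. They numbered 6 with the study's own DESeq2 Wald test, without the filter on low counts and with the excitatory markers, each adding Egr4. With the olfactory bulb markers they also numbered 6, adding Nr4a1. On log2(TPM + 1) and log2(TPM + 0.1), 287 and 296 of all genes were called lower, 307 and 304 higher, and 5 and 5 of the pathway lists. With the cerebellum markers 549 of all genes were called lower. The fold change threshold left 69 lower and 394 higher, and an adjusted p under 0.01 left 332 and 541. The median log2 fold change of all genes moved to -0.14 and -0.16 in the TPM fits, and no other alternative moved it by as much as 0.1. With a replicate block, Arc, Fos, Junb, Egr2 and Ier2 were called, Egr1 missed (edgeR, adjusted p = 0.052), and 789 of all genes were lower and 1039 higher. The correlations of same-numbered mice were 0.17, -0.12, 0.088 and -0.024, so the numbers were not taken as pairs. As summed CPM, the differences of the pan-neuronal (-0.073), endothelial (0.21), microglia (0.36), precursor (-0.094) and blood (1.31) lists no longer passed the exact permutation test after adjustment. The ratio of Fosb to Junb missed an unadjusted exact permutation p of 0.05 without old replicate 3 or old replicate 5, and that of Fosb to Ier2 without old replicate 3. With a mouse left out the p was not adjusted over the pairs. These fits therefore do not show whether a ratio keeps the call made at the adjusted p.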
